A study of Mus musculus with 3 samples.

Results

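Cycling cells of the mouse liver were chosen by measured UMIs of mitotic transcripts: a barcode was taken as a member when it held at least 2 UMIs (unique molecular identifiers, 1 for each captured transcript) summed over 11 genes, Mki67, Top2a, Ube2c, Cenpf, Nusap1, Hmmr, Birc5, Cdk1, Ccnb1, Pclaf and Stmn1, and at most 40% of its UMIs came from mitochondrially encoded genes. The rule found 252 members among 29572 kept barcodes, 99 in the library labelled flox/flox, 101 in that labelled wt/flox and 52 in that labelled wt/wt. Members with at least 1 UMI of Ptprc, which encodes the leukocyte surface phosphatase CD45, are given apart from those without: 127 were Ptprc-positive (58, 47 and 22 in flox/flox, wt/flox and wt/wt) and 125 were Ptprc-negative (41, 54 and 30). All mice were male C57BL/6 mice aged 9 weeks that lacked Ifih1 (Ifih1-/-), which encodes MDA5, a cytosolic sensor of long RNA duplexes, and carried Alb-Cre, a recombinase driven by the albumin promoter and so active in hepatocytes. They differed in Adar1, the gene of an enzyme that edits double-stranded RNA, which was flox/flox, wt/flox or wt/wt. The number of mice behind a library is not stated. Each genotype had 1 library of the 10x Genomics 3' kit, so that no difference between genotypes has a replicate check, no p-value is given, and every interval is an exact 95% interval for counting error alone. Livers were digested by collagenase perfusion, and low-speed spins, red blood cell lysis and a Percoll gradient followed, steps that favour hepatocytes over the other cells of the liver. Reads of this kit lie near the 3' end of a transcript, and which exons the floxed allele loses is not given in the sources used here, so that Adar UMIs do not check the deletion. Over the Ptprc-negative barcodes outside the rule they came to 38.5 CPM (counts scaled to 1e6) in the library labelled flox/flox, 19.6 in wt/flox and 12.5 in wt/wt, against the direction of the label.

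A dividing cell copies its DNA in S phase, with histones made alongside, and then builds a spindle, condenses its chromosomes and splits. Genes of the mitotic steps are transcribed late, in G2 and M phase, largely under the DREAM complex, which holds them silent in resting cells, and under B-MYB and FOXM1, which switch them on. In an adult liver at rest hepatocytes divide rarely, while T cells, plasma cell precursors and macrophages of the organ can divide in place.

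The promoters of mitotic genes often hold a cell cycle genes homology region (CHR), TTTGAA or its variant TTTAAA, near the start of transcription, and a CCAAT box upstream; DREAM binds the CHR and NF-Y the CCAAT box. The 120 bases before the start are shown for 4 genes of the rule and for Cdc20 and Kif11, to let the shared layout be seen. The build is GRCm38.p6, from RefSeq, each is written 5' to 3' on the gene's strand, and capitals mark both CHR spellings and the CCAAT box on either strand. A CHR on the opposite strand reads TTCAAA, or TTTAAA again for the variant, while a CCAAT box there reads ATTGG.
Top2a, chr11:99024190-99024309, minus strand: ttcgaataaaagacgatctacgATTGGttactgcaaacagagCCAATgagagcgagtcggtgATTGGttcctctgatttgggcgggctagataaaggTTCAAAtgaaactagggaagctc
Ube2c, chr2:164769809-164769928, plus strand: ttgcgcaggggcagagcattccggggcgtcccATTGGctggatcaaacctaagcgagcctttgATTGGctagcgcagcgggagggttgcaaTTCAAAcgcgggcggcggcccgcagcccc
Cdk1, chr10:69352913-69353032, minus strand: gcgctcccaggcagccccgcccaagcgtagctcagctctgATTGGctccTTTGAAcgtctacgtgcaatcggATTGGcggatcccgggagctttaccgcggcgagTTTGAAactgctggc
Ccnb1, chr13:100786487-100786606, minus strand: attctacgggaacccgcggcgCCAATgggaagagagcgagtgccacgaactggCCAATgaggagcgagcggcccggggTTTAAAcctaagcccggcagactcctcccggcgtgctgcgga
Cdc20, chr4:118437344-118437463, minus strand: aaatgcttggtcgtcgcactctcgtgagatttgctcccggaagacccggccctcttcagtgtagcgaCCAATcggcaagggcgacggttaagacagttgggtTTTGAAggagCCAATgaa
Kif11, chr19:37376262-37376381, plus strand: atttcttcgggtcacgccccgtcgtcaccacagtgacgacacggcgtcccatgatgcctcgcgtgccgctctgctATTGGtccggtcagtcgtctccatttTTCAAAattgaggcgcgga
In these windows the TTTGAA copy nearest the start lay 23 to 18 bases before it in Top2a, 29 to 24 in Ube2c, 15 to 10 in Cdk1, 18 to 13 in Cdc20 and 19 to 14 in Kif11, and Ccnb1 held TTTAAA at 42 to 37. Over both strands, TTTGAA was found in 28.0% of 82 promoter windows of a list of 88 mitosis genes that leaves out the rule genes, against 5.77% of 52 windows of a list of 61 replication genes and 7.12% of all 32851 windows. CCAAT was found in 57.3% of mitosis windows, 48.1% of replication windows and 21.3% of all windows, and a CHR of either spelling together with CCAAT in 24.4%, 1.92% and 2.48%. Of the 11 rule genes 10 had a window, and 4 of these held TTTGAA, 1 TTTAAA and 7 CCAAT. A CHR of either spelling together with CCAAT was held by 4 of the 10, which are the 4 rule genes shown. The layout is thus not general to the rule genes. A match describes these letters and is no evidence of binding in these cells.

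The 3 libraries held 10000 barcodes each and between 9744380 and 10756790 UMIs. Kept barcodes numbered 9774 in flox/flox, 9920 in wt/flox and 9878 in wt/wt, with medians of 932, 898.5 and 853 UMIs. Members were deeper than other barcodes of their class: Ptprc-positive members had a median of 2001, 1767 and 1831 UMIs against 1096, 1050.5 and 1031.5 in the other Ptprc-positive barcodes, and Ptprc-negative members 1657, 1511.5 and 1616.5 against 914, 884 and 845. The deepest Ptprc-negative members of flox/flox held 9544, 6572 and 5618 UMIs, with 2, 2 and 3 UMIs of the rule genes. In wt/flox and wt/wt the deepest held 4413 and 2850 UMIs. Sums over Ptprc-negative members of flox/flox include these deep barcodes. All members carried hepatocyte RNA. The 12 hepatocyte markers made up 1.73%, 2.34% and 2.96% of UMIs in Ptprc-positive members and 3.39%, 2.98% and 3.50% in Ptprc-negative members, against 3.42%, 4.40% and 4.68% and 6.57%, 6.99% and 7.73% in the other barcodes of each class. The presence of hepatocyte RNA in a member is therefore no sign of its type. Its level varied, from 0.933% to 9.47% of UMIs in Ptprc-negative members of flox/flox. Alb had 1012 UMIs there, of which 358 came from 1 barcode, against at most 27 and 36 in a barcode of wt/flox and wt/wt. Whether such members were hepatocytes was not tested. No barcode sequence of a member was shared between libraries, and barcodes holding more than 1 cell were not removed.

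The genes that chose the members are described first, and their values support nothing further. Levels are given as CPM, the gene's share of the UMIs summed over a class in a library, times 1e6. Mki67, which encodes the Ki-67 protein that coats mitotic chromosomes, stood at 824, 705 and 658 CPM in Ptprc-positive members of flox/flox, wt/flox and wt/wt, and at 442, 359 and 401 CPM in Ptprc-negative members. Top2a, the topoisomerase that untangles sister DNA, stood at 1288, 958 and 999 CPM and at 635, 610 and 762 CPM. Both were lower in Ptprc-negative than in Ptprc-positive members of each library. Stmn1, a microtubule destabiliser that resting cells can also transcribe, stood at 920, 584 and 613 CPM in Ptprc-positive and 590, 653 and 602 CPM in Ptprc-negative members. Pclaf, which binds the PCNA clamp, stood at 560, 385 and 431 CPM and at 363, 403 and 441 CPM. Ccnb1, the cyclin B1 that drives entry into mitosis with Cdk1, had few UMIs: 12, 5 and 8 in Ptprc-positive members, and 1, 11 and 13 in Ptprc-negative members.

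**Figure D1:**
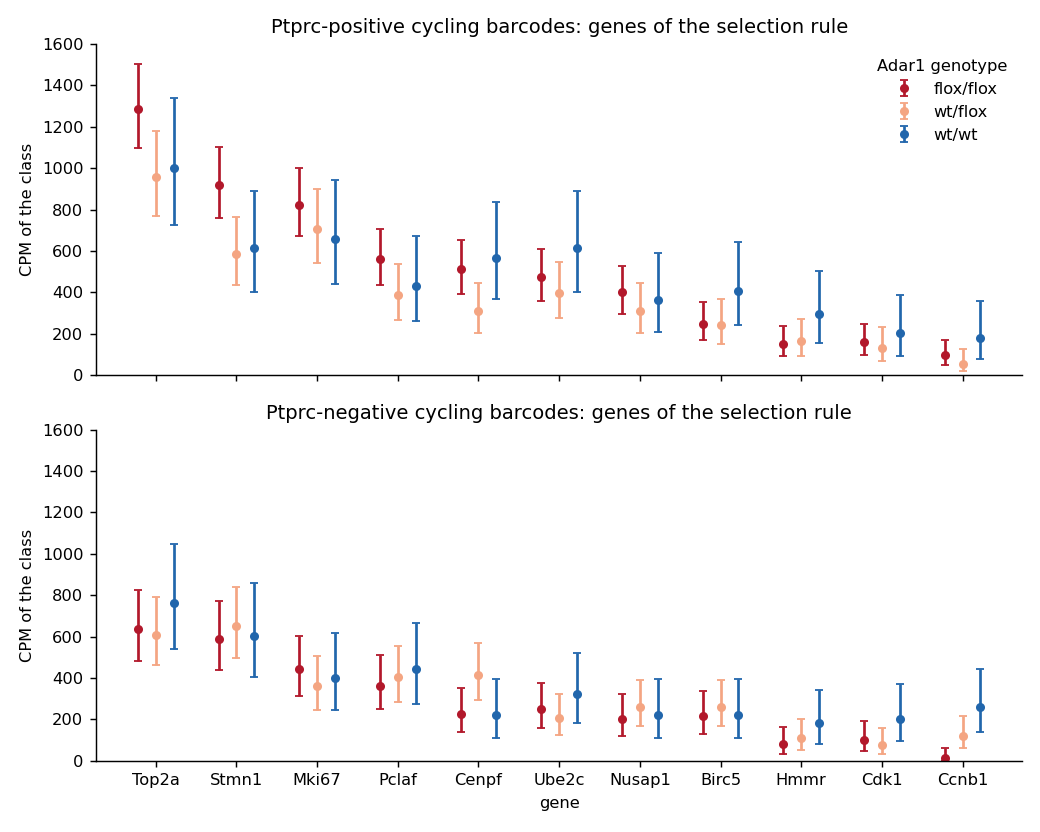
Level of the 11 rule genes in Ptprc-positive (upper panel) and Ptprc-negative (lower panel) cycling barcodes, in CPM of the class, with exact Poisson 95% intervals, for flox/flox (dark red), wt/flox (orange) and wt/wt (blue). Top2a lies at 1288, 958 and 999 CPM in the upper panel and at 635, 610 and 762 CPM in the lower one, and most intervals of the 3 libraries overlap.

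Ptprc-positive members lay further above the threshold than Ptprc-negative ones. The sum over the rule genes had a median of 10, 7 and 10.5 UMIs in Ptprc-positive members and of 5, 4 and 4 in Ptprc-negative members, with the highest at 39, 23 and 25 and at 18, 21 and 19. Exactly 2 UMIs, just inside the rule, were held by 4, 6 and 3 Ptprc-positive and by 13, 17 and 10 Ptprc-negative members. Exactly 1 UMI, just outside it, was held by 36, 27 and 15 Ptprc-positive and by 223, 259 and 204 Ptprc-negative barcodes. Among Ptprc-negative barcodes the threshold thus runs through a crowded range, and among Ptprc-positive ones through a sparser one.

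Genes that the rule did not use followed the same barcodes. The 88 mitosis genes together reached 9377, 8048 and 9397 CPM in Ptprc-positive members, against 480, 466 and 445 CPM in the other Ptprc-positive barcodes. In Ptprc-negative members they reached 6047, 6207 and 7661 CPM, against 350, 419 and 336 CPM in the other Ptprc-negative barcodes. At least 2 different mitosis genes were detected in 58 of 58, 45 of 47 and 21 of 22 Ptprc-positive members, and in 10.5%, 8.82% and 9.02% of the other Ptprc-positive barcodes. In Ptprc-negative members this held for 35 of 41, 46 of 54 and 22 of 30, and for 5.45%, 6.20% and 4.32% of the other barcodes. At least 2 mitosis genes outside the rule were thus detected in nearly all Ptprc-positive members and in most Ptprc-negative ones. After thinning each barcode to 1000 UMIs the counts were 55 of 56, 41 of 45 and 21 of 22 Ptprc-positive members, and 28 of 36, 40 of 45 and 18 of 22 Ptprc-negative members. No thinned counts are given for the other barcodes, and the part of depth in the contrast with them was not tested. A set of barcodes chosen for mitotic UMIs has to be rich in genes that are switched on with them, so these values describe the members and test nothing.

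Several spindle and cytokinesis genes had few UMIs outside the members. Kif11, the motor that pushes spindle poles apart, had 34, 19 and 17 UMIs in Ptprc-positive members and 1, 1 and 0 in the other Ptprc-positive barcodes, of which there were 792, 692 and 366. Prc1, which bundles the midzone microtubules, had 36, 18 and 15 UMIs in these members and 1 in the other barcodes of each library. Plk1, the kinase that drives mitotic entry and exit, had 12, 8 and 6 UMIs in them and 2, 0 and 0 in the others. In Ptprc-negative members Kif11 stood at 170, 142 and 160 CPM, against 1.17, 1.33 and 0.986 CPM in the other Ptprc-negative barcodes. Cenpa, the histone H3 variant of centromeres, stood at 280, 286 and 636 CPM in Ptprc-positive members, against 9.39, 7.73 and 24.1 CPM in the others. At least 1.5-fold higher in every library were 50 of the 51 mitosis genes that could be compared in the Ptprc-positive class, where 6.27% of all 9540 genes were, and 56 of 61 in the Ptprc-negative class, where 12.2% of 12944 were. The exception in the Ptprc-positive class was Pttg1, the securin gene, with 56.0, 77.1 and 45.4 CPM in members against 50.1, 46.4 and 45.7 CPM in the others. In the Ptprc-negative class Ccnf, Cenpk, Nek2, Pttg1 and Ube2t missed the threshold in at least 1 library.

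Replication genes, which act in S phase, were higher in members with more exceptions. The 61 genes summed to 4088, 3699 and 2792 CPM in Ptprc-positive members, against 668, 617 and 802 CPM in the other barcodes, and to 2575, 3267 and 2667 CPM in Ptprc-negative members, against 431, 461 and 432 CPM. Of those that could be compared, 28 of 38 were higher in every library in the Ptprc-positive class and 34 of 49 in the Ptprc-negative class. Of all genes 6.27% and 12.2% were. Rrm1, a subunit of the reductase that makes deoxynucleotides, stood at 160, 154 and 114 CPM in Ptprc-positive members, against 12.5, 10.3 and 14.4 CPM in the others. Pcna, the sliding clamp of the replication fork, stood at 256, 209 and 114 CPM there, against 60.5, 52.8 and 67.4 CPM, so that its transcript was also common outside the members. Mcm6, part of the replicative helicase, stood at 168, 99.1 and 114 CPM, against 27.1, 21.9 and 24.1 CPM. Both programs, at least 2 mitosis and at least 2 replication genes, were seen in 53, 39 and 18 Ptprc-positive and in 26, 31 and 17 Ptprc-negative members. Mitosis genes alone were seen in 5, 6 and 3 and in 9, 15 and 5, replication genes alone in 0, 1 and 0 and in 1, 2 and 2, and neither in 0, 1 and 1 and in 5, 6 and 6. The rule genes are mostly of G2 and M phase, and how well members represent cells in S phase was not tested.

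Histones of the replication-dependent kind, chromatin proteins and tubulins were also higher in members. Hist1h2ap, an H2A gene of the large histone cluster, stood at 2192, 1134 and 976 CPM in Ptprc-positive members, against 20.9, 6.44 and 2.41 CPM in the others, and at 703, 566 and 521 CPM in Ptprc-negative members, against 3.08, 2.21 and 1.21 CPM. Hist1h1b, a linker histone, stood at 608, 716 and 794 CPM in Ptprc-positive members, from 76, 65 and 35 UMIs, against 4, 1 and 2 UMIs in the others. Replication-dependent histone transcripts end in a stem-loop without a poly(A) tail, so their capture by oligo-dT is partial, and near-identical copies share reads. Hmgb2, a DNA-bending protein, stood at 3008, 3358 and 4131 CPM, against 163, 167 and 154 CPM, which is 18.5-, 20.1- and 26.8-fold higher in Ptprc-positive members. In Ptprc-negative members it stood at 1191, 2025 and 1484 CPM, against 20.2, 23.9 and 20.7 CPM. The tubulin gene Tubb5 stood at 1248, 1046 and 1248 CPM in Ptprc-positive members, against 149, 129 and 137 CPM. In the Ptprc-positive and the Ptprc-negative class 6.27% and 12.2% of all genes were higher in every library. Of the histone list 11 of 13 and 11 of 18 compared genes were, and of 22 chromatin and tubulin genes 20 and 17. Hist1h2bc, whose transcripts can be polyadenylated, was among the exceptions, at 72.0, 88.1 and 114 CPM in Ptprc-positive members against 152, 312 and 229 CPM in the others.

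Regulators of the step out of rest differed less between members and other barcodes. The 27 genes of G1 cyclins and E2F factors summed to 1312, 1431 and 1158 CPM in Ptprc-positive members, against 812, 695 and 754 CPM, and 6 of 22 compared were higher in every library. Ccnd3, the cyclin D3 of lymphocytes, stood at 168, 143 and 182 CPM, against 97.1, 92.7 and 111 CPM. Cell cycle inhibitors and p53 targets, 26 genes, summed to 1344, 1156 and 1067 CPM in these members, against 1474, 1464 and 1594 CPM, and 2 of 18 were higher in every library. In the Ptprc-positive class 6.27% of all 9540 genes were higher in every library, against these 6 of 22 and 2 of 18. Cdkn2d, which encodes the CDK4 and CDK6 inhibitor p19INK4d, stood at 72.0, 99.1 and 45.4 CPM, against 10.4, 21.9 and 12 CPM. In Ptprc-negative members 10 of 26 G1 genes and 7 of 23 inhibitor genes were higher in every library, where 12.2% of all 12944 genes were. Lower in every library were 2 of each list, for which no share over all genes was taken. Cdkn1a, the p21 gene, stood at 114, 10.9 and 160 CPM in Ptprc-negative members, against 143, 35.0 and 126 CPM in the others.

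**Figure D2:**
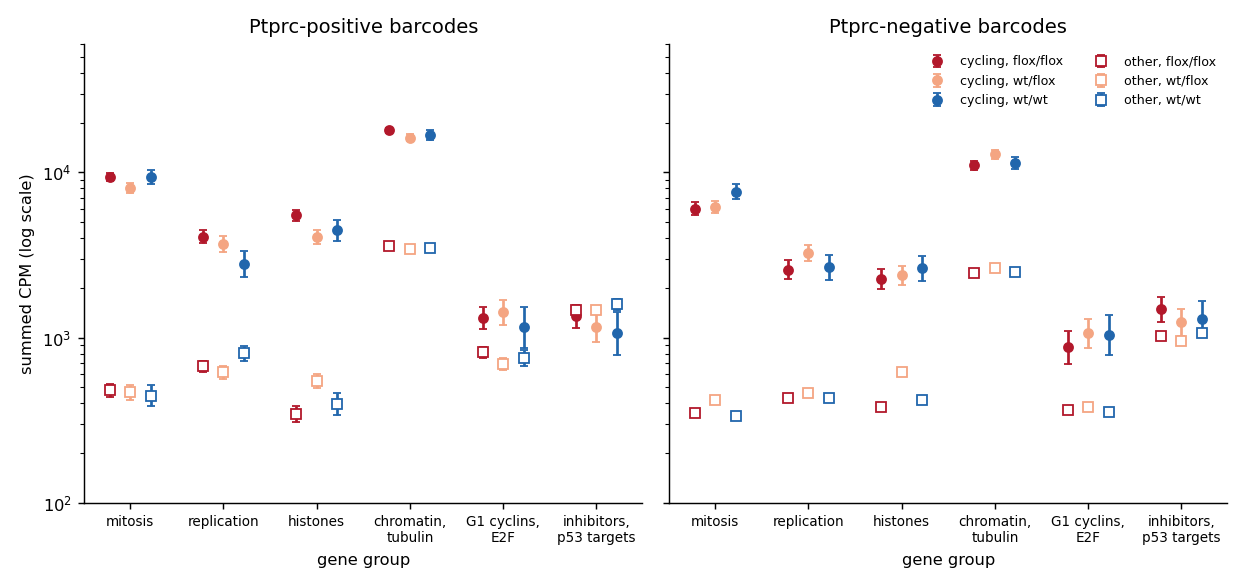
Summed level of 6 gene groups of the cell cycle, none of which holds a rule gene, in CPM on a log scale, with exact Poisson 95% intervals, in cycling (filled circles) and other (open squares) barcodes of each library. Mitosis genes reach 9377, 8048 and 9397 CPM in Ptprc-positive members against 480, 466 and 445 CPM in the others, while inhibitors and p53 targets lie close together at 1344, 1156 and 1067 against 1474, 1464 and 1594 CPM.

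Members made up 1.01% of kept barcodes in the library labelled flox/flox (95% interval 0.824 to 1.23), 1.02% in wt/flox (0.830 to 1.24) and 0.526% in wt/wt (0.393 to 0.690). Of Ptprc-positive barcodes 6.82% were members in flox/flox (5.22 to 8.73), 6.36% in wt/flox (4.71 to 8.37) and 5.67% in wt/wt (3.59 to 8.46), with intervals that overlap. Ptprc-positive barcodes themselves made up 8.70% of kept barcodes in flox/flox, 7.45% in wt/flox and 3.93% in wt/wt. Of all kept barcodes, Ptprc-positive members were 0.593% (0.451 to 0.766), 0.474% (0.348 to 0.630) and 0.223% (0.140 to 0.337). Ptprc-negative members were 0.419% (0.301 to 0.569), 0.544% (0.409 to 0.710) and 0.304% (0.205 to 0.433). Both classes had their lowest share in wt/wt. Its interval lay below the other intervals for Ptprc-positive members and overlapped them for Ptprc-negative ones. Of Ptprc-negative barcodes 0.459% were members in flox/flox (0.330 to 0.623), 0.588% in wt/flox (0.442 to 0.767) and 0.316% in wt/wt (0.213 to 0.451). The intervals of the 3 libraries overlap there too. Mature neutrophils, which no longer divide, were read as a possible background, although the maturity of the marked barcodes was not checked. Of Ptprc-positive barcodes with at least 2 neutrophil markers, 0 of 30 in flox/flox, 2 of 93 in wt/flox and 0 of 35 in wt/wt were members. Their medians were 798, 862 and 822 UMIs. With the limit of a count of 0 taken as 3 barcodes of the total, which is not an exact interval, shares of up to 10.0% of 30 and 8.57% of 35 barcodes are allowed. These lie above the 6.82% and 5.67% of all Ptprc-positive barcodes that were members. The marked barcodes were thus too few, and also shallow, to set a background for the rule. Of Ptprc-negative barcodes with these markers 0 of 35, 0 of 110 and 0 of 56 were members.

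Depth moved the shares. After each barcode was thinned to 1000 UMIs, with shallower ones left out, 2.02% (1.61 to 2.51), 2.08% (1.64 to 2.60) and 1.19% (0.840 to 1.62) of all kept barcodes were members in flox/flox, wt/flox and wt/wt. Of Ptprc-positive barcodes these were 9.61%, 8.04% and 8.41%, and of Ptprc-negative ones 0.837%, 1.23% and 0.638%. The order of the libraries among all kept barcodes was the same as without thinning. Among Ptprc-positive barcodes wt/wt lay above wt/flox after thinning and below it before, within counting error both times.

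**Figure D3:**
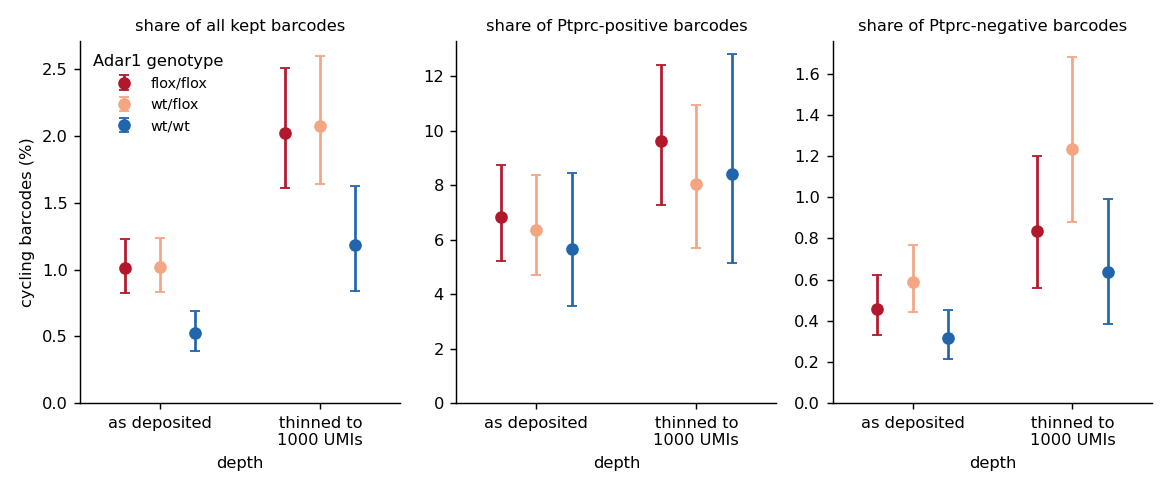
Share of cycling barcodes, in percent, among all kept, Ptprc-positive and Ptprc-negative barcodes of each library, with exact Clopper-Pearson 95% intervals, as deposited and after thinning each barcode to 1000 UMIs. Among all kept barcodes flox/flox and wt/flox lie at 1.01% and 1.02% and wt/wt at 0.526%, while among Ptprc-positive barcodes the intervals of the 3 libraries overlap.

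The members were then read for lineage markers, a barcode with at least 2 detected genes of a list being counted for that type. T cell markers were held by 27 of 58 Ptprc-positive members in flox/flox, 25 of 47 in wt/flox and 17 of 22 in wt/wt, which is 46.6%, 53.2% and 77.3%. In the other Ptprc-positive barcodes the shares were 25.0%, 18.5% and 21.9%, at lower depth. Trbc2, a constant region of the T cell receptor beta chain, had 70, 47 and 37 UMIs in 24, 22 and 14 of these members. Cd3d, part of the CD3 signalling complex, had 25, 30 and 17 UMIs. The coreceptor genes were sparse: Cd4 had 8, 1 and 3 UMIs and Cd8a 7, 4 and 6, too few to split the T cells by coreceptor. Nkg7, a granule protein of cytotoxic cells, had 41, 32 and 20 UMIs in 21, 19 and 10 members, and at least 2 markers of natural killer or innate lymphoid cells were held by 16, 5 and 5 members, of which 12, 3 and 5 also held T cell markers. Seen the other way, 12% of Ptprc-positive barcodes with T cell markers were members in flox/flox (8.06 to 17.0), 16.3% in wt/flox (10.9 to 23.2) and 17.5% in wt/wt (10.6 to 26.6), and the intervals overlap.

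Macrophage markers were found in both classes. At least 2 of 10 Kupffer cell markers were held by 9, 8 and 2 Ptprc-positive members and by 13, 10 and 2 Ptprc-negative ones, 22, 18 and 4 together. Cd5l, a secreted scavenger receptor protein of Kupffer cells, had 36, 18 and 13 UMIs in Ptprc-positive members, from 7, 5 and 2 barcodes, and 57, 60 and 7 in Ptprc-negative ones, from 10, 10 and 3. C1qa, a chain of complement C1q, had 33, 26 and 2 UMIs and 39, 32 and 6. Among barcodes with Kupffer markers the members were 5.96%, 5.80% and 2.94% of the Ptprc-positive and 4.41%, 4.26% and 0.851% of the Ptprc-negative ones. The wt/wt values rest on 2 members each, and their intervals, 0.358 to 10.2 and 0.103 to 3.04, overlap those of the other libraries. The list of 10 monocyte or macrophage markers was met by 30, 17 and 9 Ptprc-positive and 15, 15 and 11 Ptprc-negative members. Among Ptprc-positive members this was more than the T cell list in flox/flox alone. Among Ptprc-negative members, of which 4, 13 and 3 held T cell markers, it was more in each library. Ly6c2, Plac8 and S100a4, which lymphocytes also transcribe, were taken out after the values were seen. Without them the monocyte or macrophage list was met by 11, 5 and 1 and by 10, 7 and 3. Among Ptprc-positive members this was fewer than the T cell list in each library. Among Ptprc-negative members it was more in flox/flox alone, fewer in wt/flox and as many in wt/wt. Neither comparison with the full list was thus kept.

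A few members were rich in immunoglobulin transcripts. Igkc, the kappa light chain constant region, had 297, 1885 and 880 UMIs in Ptprc-negative members, from 4, 9 and 7 barcodes, with 234, 779 and 413 in the highest one of each library. In Ptprc-positive members it had 691, 67 and 0 UMIs, from 8, 4 and 0 barcodes, with 358 and 61 in the highest. Jchain, which links IgA and IgM multimers, had 182, 218 and 136 UMIs in 4, 6 and 4 Ptprc-negative members and 151, 9 and 0 in 4, 1 and 0 Ptprc-positive ones. Igha, the IgA heavy chain, had 239, 243 and 387 UMIs in 4, 7 and 4 Ptprc-negative members and 364, 0 and 0 in 4, 0 and 0 Ptprc-positive ones. These transcripts were so abundant per cell that single barcodes set the sums, and a sum over a library says little of the group. Markers of B or plasma cells were held by 10, 4 and 1 Ptprc-positive and by 4, 8 and 6 Ptprc-negative members.

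Dendritic cell markers were held by 7, 7 and 2 Ptprc-positive and 4, 2 and 4 Ptprc-negative members, and without Bst2 and Ly6d, which other cells also transcribe, by 4, 4 and 1 and by 3, 1 and 0. Neutrophil markers were held by 0, 2 and 0 Ptprc-positive and by 0 Ptprc-negative members, endothelial markers by 5, 3 and 1 and by 6, 6 and 4, stellate or fibroblast markers by 4, 1 and 0 and by 1, 1 and 2, and cholangiocyte markers by 0, 1 and 0 and by 2, 0 and 0. Members with markers of both T and Kupffer cells numbered 1 in each library among Ptprc-positive ones, and those with both T and B or plasma cell markers 3, 1 and 1. Whether such barcodes held more than 1 cell was not tested.

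**Figure D4:**
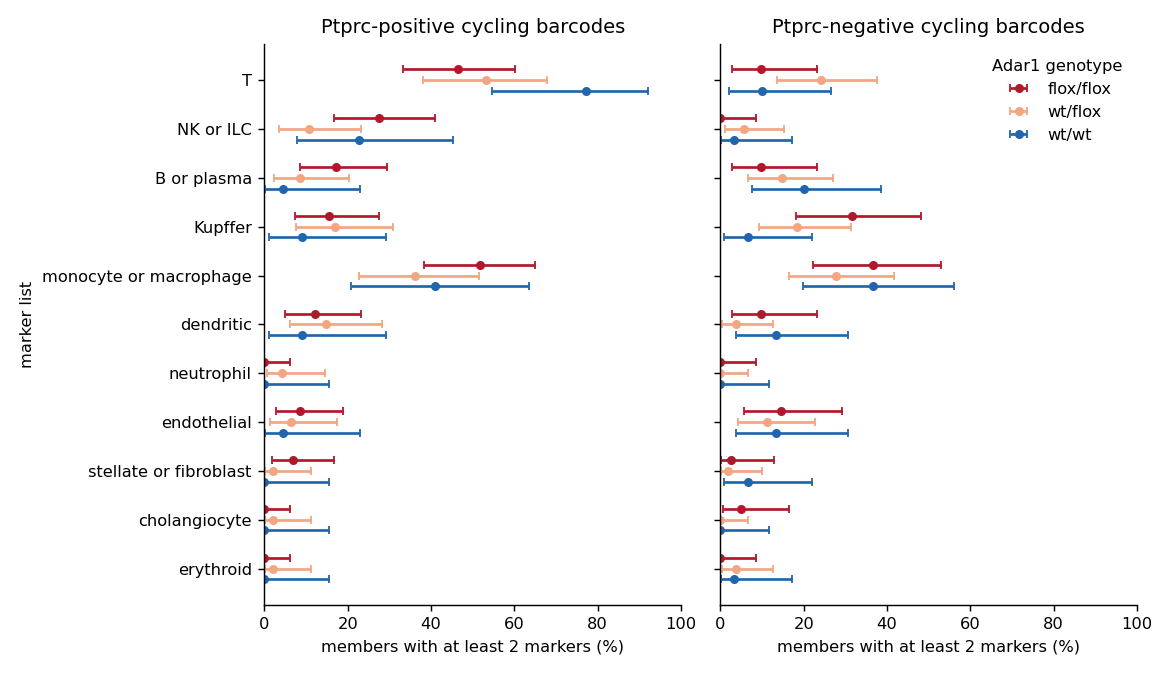
Share of Ptprc-positive (left) and Ptprc-negative (right) cycling barcodes with at least 2 detected markers of each cell type list, in percent, with exact Clopper-Pearson 95% intervals, for the 3 libraries; a barcode may count for several lists, and the monocyte or macrophage list here includes Ly6c2, Plac8 and S100a4, which lymphocytes also transcribe. T cell markers were held by 46.6%, 53.2% and 77.3% of Ptprc-positive members in flox/flox, wt/flox and wt/wt.

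Lack of a Ptprc UMI did not mark a member as non-immune. At least 2 of 10 other pan-leukocyte genes were detected in 26 of 41 Ptprc-negative members in flox/flox, 30 of 54 in wt/flox and 13 of 30 in wt/wt, which is 63.4%, 55.6% and 43.3%. In the other Ptprc-negative barcodes the shares were 5.69%, 6.11% and 3.91%. These members had a median of 8.5, 7.5 and 7 UMIs of the rule genes and mitosis genes at 8448, 6579 and 7604 CPM. No pan-leukocyte gene was detected in 12, 18 and 16 Ptprc-negative members. They had a median of 2, 2 and 2.5 UMIs of the rule genes, and 7, 11 and 8 of them held exactly 2. Most thus sat at the threshold in flox/flox and wt/flox, and 8 of 16 did in wt/wt. Mitosis genes outside the rule still stood at 3389 (2704 to 4196), 4774 (3884 to 5807) and 6956 (5803 to 8270) CPM in them, against 337, 410 and 326 CPM in the other barcodes without a pan-leukocyte gene. At least 2 such genes were seen in 9 of 12, 10 of 18 and 8 of 16, and single barcodes held up to 19, 20 and 32 of them. Hepatocyte markers made up 4.72%, 5.47% and 5.89% of the UMIs of members without a pan-leukocyte gene. They made up 1.67%, 2.25% and 2.10% in Ptprc-negative members with at least 2 such genes. In the other barcodes without a pan-leukocyte gene the shares were 6.91%, 7.27% and 7.99%. Endothelial markers were held by 5, 4 and 2 members without a pan-leukocyte gene. Members with neither a pan-leukocyte gene nor 2 markers of any other type numbered 5 of 7081 such barcodes in flox/flox, 12 of 6797 in wt/flox and 12 of 7676 in wt/wt, which is 0.0706%, 0.177% and 0.156%. Hepatocyte markers made up 5.81%, 6.46% and 7.04% of the UMIs of these members, against 7.05%, 7.59% and 8.24% in the other such barcodes. Every barcode carried hepatocyte RNA, so its presence cannot tell whether these members were dividing hepatocytes. Whether its level can was not tested.

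Genes of the type I interferon response, which unedited double-stranded RNA can set off through sensors such as MDA5, were higher in members of the library labelled flox/flox. Summed over the 55 genes of the list in the files, they stood at 7017, 4701 and 4063 CPM in Ptprc-positive members of flox/flox, wt/flox and wt/wt, and at 6728, 4378 and 3128 CPM in Ptprc-negative members. On the log2 scale flox/flox members exceeded wt/wt ones by 0.79 in the Ptprc-positive class (0.55 to 1.03) and by 1.10 in the Ptprc-negative class (0.85 to 1.37). Over wt/flox the excess was 0.58 (0.41 to 0.75) and 0.62 (0.43 to 0.81). Between wt/flox and wt/wt it was 0.21 (-0.04 to 0.47) and 0.48 (0.21 to 0.76), so that the interval of the Ptprc-positive class includes 0. The other barcodes of each class moved likewise, by 1.02 and 1.49 for flox/flox over wt/wt, 0.68 and 1.00 over wt/flox, and 0.33 and 0.50 for wt/flox over wt/wt. The order of the libraries was thus the same outside the members, and whether the size differs was not tested. Since hepatocyte markers were found in every member, free RNA may add interferon response UMIs, and its part in the members' values was not tested.

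**Figure D5:**
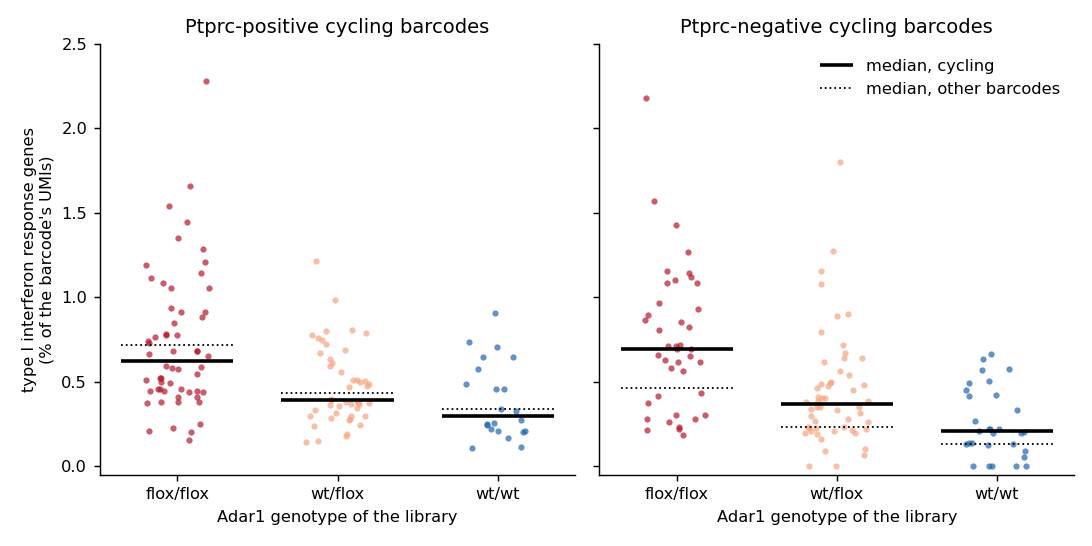
Share of each cycling barcode's UMIs that came from type I interferon response genes, in percent, by library, for Ptprc-positive (left) and Ptprc-negative (right) members; each point is a barcode, solid lines are medians of members and dotted lines medians of the other barcodes of the class. Medians of members lie at 0.622%, 0.395% and 0.300% on the left and at 0.694%, 0.368% and 0.207% on the right, and the points of the 3 libraries overlap.

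Taken barcode by barcode, interferon response genes made up a median of 0.622% of UMIs in Ptprc-positive members of flox/flox, 0.395% of wt/flox and 0.300% of wt/wt, with ranges of 0.153% to 2.28% in flox/flox and 0.108% to 0.909% in wt/wt. In Ptprc-negative members the medians were 0.694%, 0.368% and 0.207%. Single barcodes of the libraries overlapped widely, and barcodes of 1 library are not replicates of a genotype. With at least 20 UMIs over the 3 libraries taken as the least for a ratio, 16 genes of the list could be compared in Ptprc-positive members, of which 10 were at least 1.5-fold higher in flox/flox than in wt/wt and 1 lower, while of all 2344 such genes 20.1% were higher and 22.2% lower. Their median log2 ratio was 0.89, against 0.03 over all genes. In Ptprc-negative members 10 of 12 were higher and 1 lower, against 23.6% and 17.9% of 2043 genes, with a median of 0.96 against 0.04. Over wt/flox, 7 of 16 and 6 of 12 were higher and none lower, where 18.0% of all genes were higher and 16.8% lower in the Ptprc-positive class and 19.8% and 16.5% in the Ptprc-negative class. For wt/flox over wt/wt, 4 were higher and 2 lower of 16, where 17.7% and 20.9% of all genes were, and 4 higher and 1 lower of 12, where 20.3% and 18.3% were.

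Single interferon response genes had few UMIs and wide intervals. Ly6a, the Sca-1 surface protein, stood at 584, 253 and 204 CPM in Ptprc-positive members, from 73, 23 and 9 UMIs, which is a log2 ratio of 1.52 for flox/flox over wt/wt (0.51 to 2.70) and of 1.21 over wt/flox (0.51 to 1.95). Ifi203, a DNA-binding protein of the PYHIN family, had 37, 13 and 3 UMIs there, a log2 ratio of 2.12 over wt/wt (0.46 to 4.46). Ifitm3, which hinders viral entry, stood at 536, 539 and 250 CPM in Ptprc-positive members, so that wt/flox was as high as flox/flox. In Ptprc-negative members it stood at 1248, 664 and 441 CPM, a log2 ratio of 1.5 over wt/wt (0.83 to 2.23) and of 0.91 over wt/flox (0.45 to 1.39). Ly6e, a membrane protein, stood at 1440, 1178 and 1044 CPM and at 1373, 1100 and 902 CPM, with log2 ratios over wt/wt of 0.46 (-0.01 to 0.96) and 0.61 (0.10 to 1.13). In the other Ptprc-negative barcodes it stood at 973, 311 and 251 CPM, a log2 ratio of 1.95 over wt/wt. Ly6c2 showed no excess in Ptprc-positive members, with 192, 209 and 227 CPM.

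The make-up of the members differed between libraries, so the interferon response was also read within sets that share markers, an addition made after the values above were known. In Ptprc-positive members with T cell markers it stood at 6884, 4589 and 4668 CPM, a log2 ratio of 0.56 for flox/flox over wt/wt (0.29 to 0.83), 0.59 over wt/flox (0.35 to 0.82) and -0.02 for wt/flox over wt/wt (-0.32 to 0.27). In members with Kupffer cell markers of both classes it stood at 11957, 7325 and 3720 CPM, from 22, 18 and 4 barcodes, with log2 ratios of 1.68 (1.17 to 2.24), 0.71 (0.47 to 0.95) and 0.98 (0.45 to 1.55). In Ptprc-negative members with at least 2 pan-leukocyte genes it stood at 7624, 4261 and 3939 CPM, and in those without any at 5528, 2865 and 1522 CPM. In each of these sets flox/flox was higher than both other libraries. For wt/flox over wt/wt the ratio was near 0 in T cell marked members and above 0 in Kupffer cell marked ones, of which wt/wt had 4.

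Mitosis genes did not follow the interferon response across the libraries. In Ptprc-positive members their sum differed by -0.00 on the log2 scale between flox/flox and wt/wt (-0.17 to 0.16), by 0.22 between flox/flox and wt/flox (0.09 to 0.36) and by -0.22 between wt/flox and wt/wt (-0.40 to -0.05). Of 45 that could be compared, 11 were higher and 8 lower in flox/flox than in wt/wt, near the 20.1% and 22.2% of all genes. In Ptprc-negative members the sum was lower in flox/flox than in wt/wt by a log2 ratio of -0.34 (-0.53 to -0.15). Of 29 genes 2 were higher and 11 lower, where 23.6% and 17.9% of all genes were. The flox/flox members of 9544, 6572 and 5618 UMIs held only 5, 3 and 4 mitosis UMIs and lower this sum. The deepest wt/wt member held 2850 UMIs, and the part of depth in the difference was not tested. In Ptprc-negative members with at least 2 pan-leukocyte genes the log2 ratio of flox/flox over wt/wt was 0.15 (-0.09 to 0.39). In those without any it was -1.04 (-1.45 to -0.63), but 50 of the 128 mitosis UMIs in wt/wt came from 1 barcode. The 24783 UMIs of this set in flox/flox also included the barcodes of 6572 and 5618 UMIs, with 3 and 4 mitosis UMIs. Without the barcode with the most mitosis UMIs in each library, which keeps these deep barcodes in, the set stood at 2378, 3636 and 4734 CPM. The medians per barcode over the whole set had another order, with mitosis genes at 0.377%, 0.202% and 0.209% of UMIs. No direction is therefore drawn for these members. Cenpa was lower in Ptprc-positive members of flox/flox, at 280 CPM against 636 CPM in wt/wt, a log2 ratio of -1.18 (-1.94 to -0.41), and lower in the other Ptprc-positive barcodes as well, from 9 and 10 UMIs. Smc4, a condensin subunit, stood at 520, 209 and 159 CPM in Ptprc-positive members, a log2 ratio of 1.71 over wt/wt (0.59 to 3.08) and of 1.31 over wt/flox (0.56 to 2.13). In Ptprc-negative members Smc4 stood at 193, 250.5 and 341 CPM, the opposite order.

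Replication genes summed higher in Ptprc-positive members of flox/flox than of wt/wt, by 0.55 on the log2 scale (0.26 to 0.85), and 8 of 18 compared were higher and 3 lower, where 20.1% and 22.2% of all genes were. For wt/flox over wt/wt the difference was 0.41 (0.10 to 0.72), and between flox/flox and wt/flox 0.14 (-0.06 to 0.35). T cell marked members stood at 4974, 4413 and 2420 CPM, with a log2 ratio of 1.04 for flox/flox over wt/wt (0.69 to 1.41). Ptprc-positive members without T cell markers stood at 3278, 2777 and 4172 CPM, the wt/wt value from 5 barcodes. Atad2, a chromatin reader active in S phase, had 38, 7 and 2 UMIs in Ptprc-positive members. Its log2 ratio was 1.98 over wt/flox (0.80 to 3.39) and 2.16 over wt/wt (0.79 to 5.84). In Ptprc-negative members the replication sum differed by -0.05 between flox/flox and wt/wt (-0.37 to 0.27). Between flox/flox and wt/flox it differed by -0.34 (-0.60 to -0.09), and between wt/flox and wt/wt by 0.29 (-0.01 to 0.60). Of 10 compared genes 2 were higher and 4 lower in flox/flox than in wt/flox, where 19.8% and 16.5% of all genes were. The deep flox/flox barcodes count in these sums too. Hist1h2ap, at 2192, 1134 and 976 CPM in Ptprc-positive members, was higher in flox/flox by 1.17 over wt/wt (0.70 to 1.67) and by 0.95 over wt/flox (0.62 to 1.29), while in Ptprc-negative members its intervals included 0.

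Genes of antigen presentation differed by class and by marker. MHC class II genes, which macrophages, dendritic and B cells carry, summed higher in Ptprc-positive members of flox/flox than of wt/wt by 0.72 on the log2 scale (0.41 to 1.04) and of wt/flox than of wt/wt by 0.98 (0.66 to 1.30). Split by T cell markers, the direction was not kept: Ptprc-positive members without them stood at 7215, 8356 and 10055 CPM, the wt/wt value coming from 5 barcodes, and those with them at 167, 1699 and 259 CPM. Without the highest barcode of each library these were 6409, 7353 and 6643 CPM and 86.9, 617 and 63.0 CPM. In Ptprc-negative members the sum was higher in flox/flox by 1.25 over wt/wt (0.92 to 1.59) and by 0.65 over wt/flox (0.42 to 0.88), and 5 of 5 and 3 of 5 compared genes were higher, where 23.6% and 19.8% of all genes were. Kupffer cell markers, whose part in this was not tested, were held by 13 of 41, 10 of 54 and 2 of 30 Ptprc-negative members. With at least 2 pan-leukocyte genes the Ptprc-negative members stood at 7526, 4000 and 2500 CPM, a log2 ratio of 1.59 for flox/flox over wt/wt (1.23 to 1.97). Of the 73 UMIs in wt/wt 50 came from 1 barcode, and without the highest barcode of each library the ratio was 2.95 (2.34 to 3.63). Ptprc-negative members without a pan-leukocyte gene had 3, 1 and 15 UMIs, all of 1 barcode in each library, and a log2 ratio of -2.75 (-5.18 to -0.93). Over all Ptprc-negative members H2-Aa, an alpha chain, stood at 987, 599 and 361 CPM, from 15, 12 and 4 barcodes. Its log2 ratio for flox/flox over wt/wt was 1.45 (0.71 to 2.27). In the other Ptprc-negative barcodes it stood at 90.4, 66.7 and 60.2 CPM. Of the MHC class I genes 0 of 12 were higher and 4 lower in Ptprc-positive members of flox/flox against wt/wt, where 20.1% and 22.2% of all genes were. In Ptprc-negative members 2 of 11 were higher and 2 lower, near the 23.6% and 17.9% of all genes. B2m, the class I light chain, stood at 2348, 1982 and 1123 CPM in Ptprc-negative members, a log2 ratio of 1.06 over wt/wt (0.63 to 1.52), close to 0.93 in the other barcodes.

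By size of ratio, the genes that led flox/flox over both other libraries in Ptprc-positive members were Igha, Iglc2, Jchain, Igkc and Mzb1, all of antibody-making cells and from at most 8 barcodes, followed by Lpin1, Atad2 and Rpn1. Lpin1, a phosphatidate phosphatase of liver lipid synthesis, had 59, 6 and 5 UMIs in these members, and 829, 72.1 and 421 CPM in the other Ptprc-positive barcodes, so that the same order was present outside the members. Lyz2, the lysozyme of macrophages and neutrophils, was lower in flox/flox, with 14, 40 and 20 UMIs, and 19 of the 20 in wt/wt came from 1 barcode. In Ptprc-positive members of wt/flox the metallothionein Mt1 was lower than in wt/wt, at 96, 7 and 41 UMIs over flox/flox, wt/flox and wt/wt, a log2 ratio of -3.59 (-5.00 to -2.42) that stood at -3.50 in the other barcodes. C1qa was higher there, at 33, 26 and 2 UMIs, as the counts of Kupffer cell marked members were. In Ptprc-negative members Spp1 led flox/flox with 60 UMIs, all of 1 barcode, and Slc2a2, the glucose transporter of hepatocytes, had 20, 4 and 0 UMIs, with 249, 130 and 120 CPM in the other barcodes. Haemoglobin, immunoglobulin and Mup17 transcripts led wt/flox over wt/wt there. Of Hbb-bs, a beta globin, 307 of the 329 UMIs in wt/flox came from 1 barcode. Mup17, a major urinary protein of hepatocytes, had 20, 47 and 4 UMIs, and 238, 1055 and 237 CPM in the other barcodes.

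The study's title names ADAR1, progranulin and EGFR in an exchange between hepatocytes and macrophages, and these genes were sparse in members. Adar had 4, 3 and 0 UMIs in Ptprc-positive and 5, 3 and 1 in Ptprc-negative members, too few to compare. Ifih1 had 0 UMIs in members. The progranulin gene Grn was at 312, 275 and 204 CPM in Ptprc-positive members, a log2 ratio of 0.61 for flox/flox over wt/wt (-0.46 to 1.84). In Ptprc-negative members it stood at 442, 261 and 180 CPM, a log2 ratio of 1.29 over wt/wt (0.22 to 2.52) and of 0.76 over wt/flox (-0.01 to 1.56), against 176, 114 and 118 CPM in the other barcodes. Egfr, the epidermal growth factor receptor, stood at 261, 87.1 and 201 CPM in Ptprc-negative members and at 539, 210 and 346 CPM in the other barcodes, the same order at lower levels.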

How the data were processed

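The deposited matrix held whole-number UMI counts per gene and barcode, with the 3 libraries aggregated by Cell Ranger 6.1.1 per the file headers; mm10 and Seurat are named in the submitters' processing notes. The 3 libraries held 9744380 to 10756790 UMIs. Each held exactly 10000 barcodes, and whether aggregation evened out depth is not given in the sources used here. Barcodes above 40% mitochondrial UMIs were left out, members were chosen by the rule, and UMIs were summed per library and class. With 1 library per genotype no test was run: shares have Clopper-Pearson, levels exact Poisson and ratios exact conditional binomial 95% intervals, for counting error only. A difference was called at 1.5-fold, against a floor of 3 counts, and ratios between libraries were taken for genes with at least 20 UMIs. Members and gene lists were chosen with earlier results of these data known. Genes named between libraries were the rule genes, Adar, Ifih1, Grn and Egfr, at most 6 measured genes of each list with the most UMIs, and up to 8 by size of ratio in each direction, with mitochondrial, ribosomal protein, Gm, Rik and sex-linked marker genes left out of that ranking. Marker genes, the cell cycle genes given singly and the sets split by markers were chosen after their values were seen. Doublets were not called. The calculations were tested on simulated data. Alternatives covered the rule, Ptprc and mitochondrial thresholds, thinning, the UMI minimum per gene, the floor, the scaling and, added later, leaving out the highest barcode of a set. Scripts ran in Python 3.11.15 with matplotlib 3.10.9, pandas 2.3.3, scipy 1.17.1 and numpy 2.4.6.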

Additional observations from a re-analysis of the deposited data

How the results depend on the processing

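No paired analysis was possible because each genotype had 1 library. Members with at least 1 UMI of the rule genes were 3.66%, 3.90% and 2.74% of all barcodes in flox/flox, wt/flox and wt/wt, 11.1%, 10.0% and 9.54% of Ptprc-positive and 2.96%, 3.41% and 2.47% of Ptprc-negative ones. The median interferon log2 ratio was then 0.575 for flox/flox over wt/wt and -0.0643 for wt/flox over wt/wt in the Ptprc-positive class, and 1.52 for flox/flox over wt/wt and 0.880 over wt/flox in the Ptprc-negative class, and the MHC class II median of wt/flox over wt/wt reversed to -0.0223 there (the cause was not tested). With at least 3 UMIs the Ptprc-negative shares were 0.314%, 0.403% and 0.211%, the share of all barcodes in wt/flox 0.786%, and the Ptprc-negative interferon medians 0.669, 0.846 and -0.190. With barcodes of at least 1000 UMIs the shares were 2.30%, 2.49% and 1.37% of all, 10.4%, 10.0% and 9.73% of Ptprc-positive and 1.04%, 1.42% and 0.738% of Ptprc-negative barcodes. After thinning they were 2.02%, 2.08% and 1.19% of all, 9.61% of Ptprc-positive barcodes in flox/flox, and 0.837%, 1.23% and 0.638% of Ptprc-negative ones. With at least 2 Ptprc UMIs 11.3% of Ptprc-positive barcodes in wt/flox and 0.784% of Ptprc-negative ones in flox/flox and in wt/flox were members, with interferon medians of 1.01 for flox/flox over wt/flox and -0.0660 for wt/flox over wt/wt in the Ptprc-positive class, and 1.25 for flox/flox over wt/wt and 0.613 for wt/flox over wt/wt in the Ptprc-negative class. With immune barcodes set by Ptprc or 2 pan-leukocyte genes, chosen after seeing the data, the non-immune shares were 0.179%, 0.279% and 0.187%, and the interferon medians 0.740 for flox/flox over wt/flox in immune members and 1.24 for flox/flox over wt/wt and 0.735 for wt/flox over wt/wt in the others. Without Stmn1 and Pclaf in the rule the Ptprc-negative share in flox/flox was 0.325%. With 10 UMIs per gene the interferon medians were 0.417 for flox/flox over wt/wt and -0.307 for wt/flox over wt/wt in the Ptprc-positive class, and 0.853 for flox/flox over wt/flox and -0.144 for wt/flox over wt/wt in the Ptprc-negative class. With a floor of 1 count the Ptprc-negative median of flox/flox over wt/wt was 1.24, and with the mean of the barcodes' own CPM 1.39, with 0.567 for wt/flox over wt/wt. Over 13 settings the median for flox/flox over wt/wt stayed above 0 in all, at 0.42 to 1.01 in the Ptprc-positive and 0.67 to 1.52 in the Ptprc-negative class, and that for wt/flox over wt/wt in 10 and in 11. Without the barcode with the most UMIs in each library, an alternative chosen after seeing the data, the MHC class II ratio of flox/flox over wt/wt in T cell marked members reversed to 0.464, from few UMIs. Depth limits the shares, since a shallow dividing cell may hold fewer than 2 UMIs of the rule genes.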
